A study of Mus musculus with 8 samples.

Results

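The genes described here are the potassium channel subunits whose RNA was found in ribosome pull-downs aimed at embryonic midbrain dopamine and hindbrain serotonin neurons of the mouse. Members are protein-coding genes whose symbol starts with Kcn followed by a letter and a digit, or is Kcnip or Kcnab with a digit, and that reach a counts-per-million value (CPM, over the total of the library) of 1 in at least 2 of the 8 libraries. Of 88 protein-coding genes with such a symbol, 57 passed this level, among 38924 genes in the tables, of which 18712 had at least 1 count in any library. Just inside the level, the second highest library of Kcns3 stood at 1.09 CPM, of Kcnk4 at 1.32 and of Kcnn3 at 1.39. Just outside it, Kcnj11 reached 0.843, Kcng2 0.679 and Kcnd1 0.572 CPM.

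The libraries were made by the bacTRAP method, in which a tagged ribosomal protein is produced in the cells that use a chosen promoter, so that ribosome-bound RNA of those cells is pulled out of mixed tissue. The dopamine neurons of the midbrain gave 6 libraries (datL, n = 2; datM, n = 2; Lateral, n = 1; Medial, n = 1), and the serotonin neurons of the hindbrain gave 2. The series' design names mice with the tag under the dopamine transporter gene (Slc6a3, DAT) and under the serotonin transporter gene (Slc6a4), whereas the description of every library, serotonin included, names the Slc6a3 line JD1640. No drug, deletion or other mutation is given for any group. Dissection was on embryonic day 15, and midbrain called day 18 spent 3 further days in vitro. This wording is shared by all 8 libraries, and only the column headers of Lateral and Medial carry the mark E18. The labels neither spell out L and M nor tie replicates to separate animals. A p-value here therefore covers the spread among the libraries at hand, which can be technical in origin.

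Potassium channels let potassium leave the cell and so set the resting potential, end the action potential and time the interval to the next one. Most are tetramers of pore-forming subunits, and each family opens on a different cue: voltage, internal calcium or sodium, G proteins or ATP, while two-pore subunits pair up to give a steady leak. Auxiliary subunits carry no pore and alter the gating or the surface delivery of the pore-forming ones. In adult dopamine neurons, the A-type channel of Kcnd3 with the calcium sensor Kcnip3 is known to slow pacemaking. There the calcium-activated channel of Kcnn3 keeps firing regular, and the G-protein-gated channel of Kcnj6 passes the inhibition by dopamine autoreceptors.

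The pore-forming subunits select potassium through the selectivity filter, a short loop that lines the pore. Its usual signature reads threonine, any residue, glycine, tyrosine or phenylalanine, glycine. Its coding sequence is shown for subunits that the results below turn on, to let the families be compared at their shared core. Each line gives 30 bases of the longest coding sequence of GENCODE M21, 5′ to 3′ on the coding strand, with the 15 bases of the signature in capitals.
Kcna6: atgaccACGGTAGGTTATGGGgacatgtac
Kcnd2: atgacaACACTGGGGTATGGCgacatggta
Kcnj6: gaaaccACCATCGGTTATGGCtaccgggtc
Kcnk10, first pore loop: atcacaACCATAGGGTATGGGaatattgct
Kcnk10, second pore loop: ctgaccACAGTAGGCTTTGGTgattttgtg
The signature was found in 39 of the 49 pore-forming members and in 0 of the 8 auxiliary ones. It occurred more than once in 5 of the 6 two-pore members and in no other member, and 229 of 21587 protein-coding genes held it (1.06%). The 10 pore-forming members without these letters were the 6 Kcnh genes, Kcnj14, Kcnn1, Kcnn2 and Kcnn3. Only these letters were searched for, so a filter with another residue at a fixed place would be missed.

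Total counts per library were 22417739 to 33216710. The datL and datM libraries came from one run folder and the other 4 from lane 8 of another run, per the file headers. Slc6a3 was at 31.9 to 740 CPM in the 6 dopamine libraries, against 0.679 and 0.171 CPM in the serotonin libraries, and Tph2, an enzyme of serotonin synthesis, at 0 to 41.5 against 2909 and 2189 CPM. Pitx3, another dopamine marker, stayed between 0 and 4.01 CPM in the dopamine libraries. Astrocyte and radial glia markers, 10 genes summed, came to 1855 to 3488 CPM in dopamine and 660 and 862 CPM in serotonin libraries. The 8 vascular and mural markers summed to 13.8 to 165 CPM in dopamine and 13.9 and 16.7 CPM in serotonin libraries, and the 4 microglial markers to at most 13.5 CPM in any library. In such pull-downs, fewer cells of a type and less RNA per cell cannot be told apart.

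Every family of subunits had members in these pull-downs, but the fraction of each family differed. Members were all 3 sodium-activated or Slo3 genes, together with 2 of 3 Kv4, 6 of 8 Kv1, 6 of 8 EAG, ELK and ERG, 3 of 4 calcium-activated and 3 of 5 Kv7 genes. The inward rectifiers kept 9 of 15 genes, the silent Kv subunits 5 of 10 and the two-pore genes 6 of 14. Of the 12 auxiliary genes, 8 were members, and the 4 that fell short were Kcne1, Kcne2, Kcne3 and Kcne4. Together the 57 members took 0.0597% and 0.0512% of the counts in datL, 0.0753% and 0.0996% in datM, 0.0791% in Lateral, 0.0872% in Medial and 0.0504% and 0.0567% in serotonin libraries. The highest shares were in a datM library and in Medial, and the datL and serotonin libraries overlapped.

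**Figure D1:**
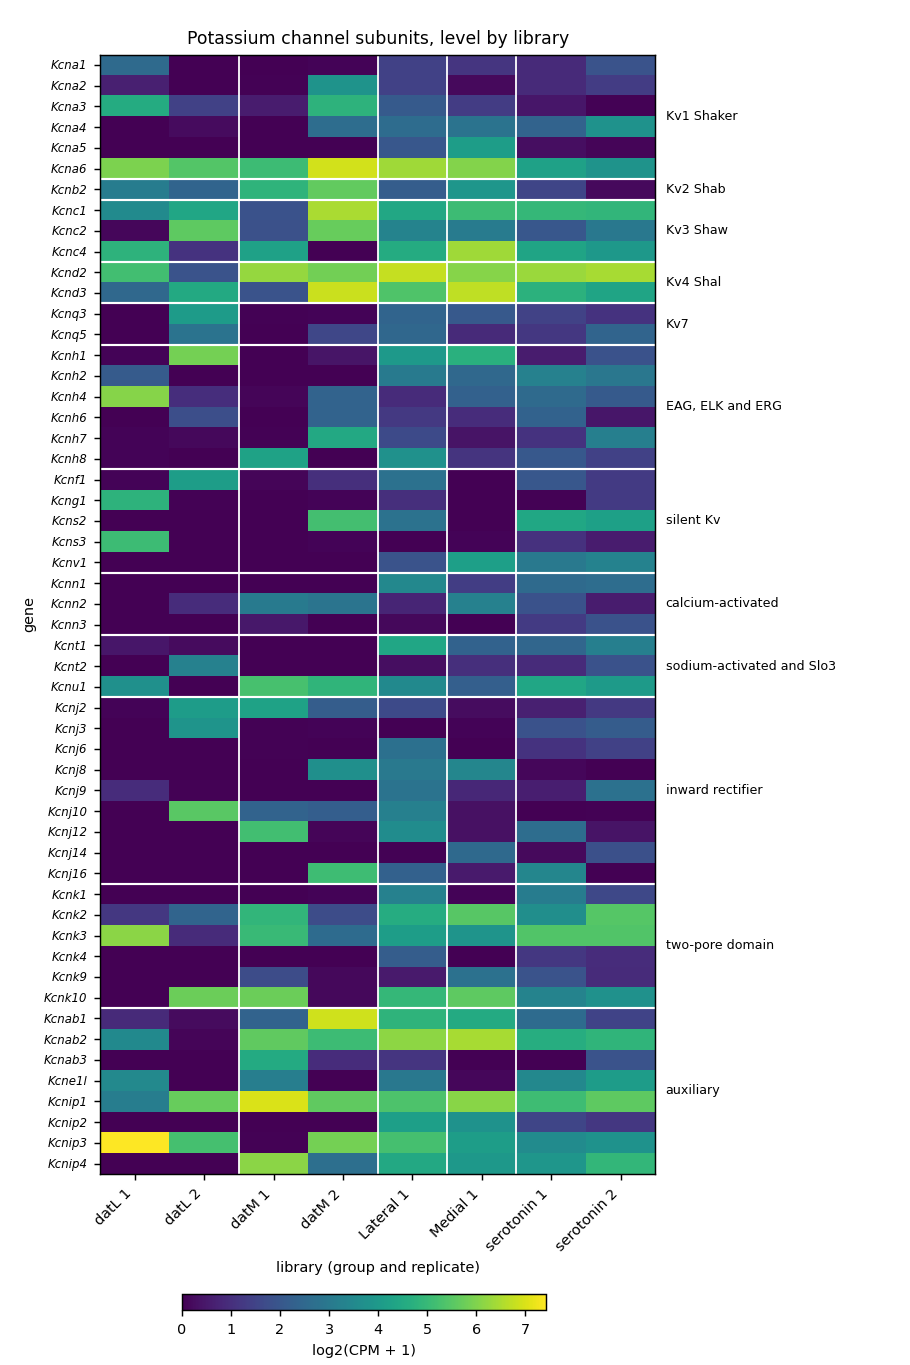
Level of 54 of the 57 members in each of the 8 libraries as log2(CPM + 1), ordered by family down the page. Rows such as Kcna6, Kcnd2 and Kcnip1 are lit in all libraries, while 6 rows, among them Kcnip2 and Kcnn1, are dark in all 4 datL and datM libraries.

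Compared per length, by reads-per-kilobase-per-million values (RPKM, the mean over 8 libraries), the most abundant member was Kcnd2, a pore-forming subunit of A-type channels, at 12.3 RPKM. Next came its partner class of calcium sensors with Kcnip3 at 12.04 RPKM, the two-pore leak channel Kcnk10 at 10.1, the Shaker subunit Kcna6 at 9.18 and a further calcium sensor, Kcnip1, at 8.51. The fast-inactivating Kv3 subunit Kcnc4 (7.62 RPKM), the acid-sensitive leak channel Kcnk3 (7.21), the Kv1 partner Kcnab2 (6.71), the sensor Kcnip4 (5.34) and the stretch-sensitive leak channel Kcnk2 (5.13) completed the 10 highest. This order is loose: Kcnip3 ranged from 0.0103 to 48.1 RPKM between libraries and Kcnk10 from 0 to 21.1, so neighbours in it do not differ beyond their spread. The lowest was the Shaker subunit Kcna1 at 0.159 RPKM. Just above it stood Kcnj6, the G-protein-gated channel known from adult nigral neurons, at 0.182 RPKM, and Kcnn3 at 0.186.

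Members came and went between replicates of the datL and datM groups. In datL, 25 and 24 of the 57 members had 0 counts, in datM 21 and 15, in Lateral 2, in Medial 7 and in the serotonin libraries 2 each. As a share, 43.9% and 42.1% of members in datL and 36.8% and 26.3% in datM had no count, against 14.98% to 21.5% of the 12447 protein-coding genes that pass the same level rule. In the 4 lane 8 libraries 3.51% to 12.3% of members and 1.52% to 8.07% of those genes had none. The members were not matched to those genes for level, here or in the library pairs below, and the part of level was not tested. With a floor of 3 counts, 0 counts in a datL or datM library allows a level of up to 0.110 to 0.132 CPM, and such floors and all intervals cover counting error only.

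**Figure D2:**
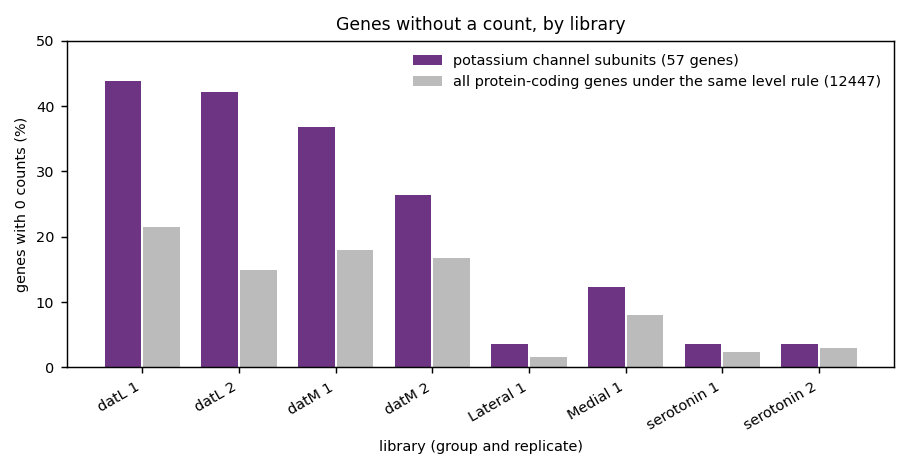
Share of genes with 0 counts in each library, for the 57 members and for the 12447 protein-coding genes that pass the same level rule. The members' bars reach 26.3% to 43.9% in datL and datM and 3.51% to 12.3% in the other 4 libraries.

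In datL, 16 members reached 10 CPM in one library and stayed under 1 CPM in the other (28.1% of members, against 14.9% of all genes under the rule), and in datM 12 did (21.1%, against 14.98%). Lateral with Medial had 1 such member, the inward rectifier Kcnj12 (1.75%, against 3.86%), and the serotonin pair had 0 (against 0.378%). Kcnip3 illustrates it: its 4 datL and datM libraries held 171, 36.9, 0.0367 and 57.4 CPM. Correlation of the members' log2(CPM + 1) between the libraries of a group was 0.140 in datL and 0.345 in datM, against 0.785 in serotonin and 0.703 for Lateral with Medial, over 57 genes that share their library. For all genes under the rule these were 0.654, 0.650, 0.933 and 0.795.

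At 0 counts in all 4 datL and datM libraries were 6 members: Kcna5, Kcnip2, Kcnj14, Kcnk4, Kcnn1 and Kcnv1, and 5 of them had a count in each of the 4 lane 8 libraries. The share of all genes with this pattern was not computed, so it is not shown to be particular to these members. Of the 12447 protein-coding genes under the level rule, 14.98% to 21.5% had no count in single datL and datM libraries. In the lane 8 libraries 1.52% to 8.07% had none. Kcnip2, a calcium sensor of A-type channels, stood at 17.3 CPM in Lateral, 12.8 in Medial and 1.93 and 1.30 in serotonin libraries. Kcnn1, a calcium-activated channel of small conductance, stood at 10.1 CPM in Lateral, 1.56 in Medial and 4.89 and 5.28 in serotonin libraries. At the other end, 7 members reached 1 CPM in all 8 libraries, among them Kcna6, Kcnc1, Kcnd2, Kcnd3, Kcnip1 and Kcnk2. These span a Shaker subunit, a Kv3 subunit of fast spiking neurons, both Kv4 subunits, a Kv4 sensor and a leak channel.

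The first comparison asked which subunits differ between dopamine and serotonin neurons, with 6 libraries against 2. No member passed the threshold, and Kcna6 came nearest: it was higher in every dopamine library than in both serotonin libraries. Kcna3 and Kcnb2 were also above serotonin in 6 of 6 dopamine libraries, at lower levels, and Kcnn3 was below in 6 of 6. Kcnn3 reached 1 CPM in serotonin libraries only, and Kcna3, Kcna5, Kcnj8 and Kcnj10 in dopamine libraries only, so for these 5 members the level rule itself favours a difference of that direction. The quasi-likelihood test of edgeR, with Benjamini-Hochberg adjustment over all genes, called 0 of 13806 genes (0%) at an adjusted p under 0.05 and 0 of 57 members, whose smallest adjusted p was 0.772. At an unadjusted p under 0.05, 2 members were higher in dopamine (3.51%, against 2.80% of all genes) and 0 lower (against 1.90%). Without overlap between the groups, 3 members lay above serotonin (5.26%, against 3.06% of all genes) and 1 below (1.75%, against 8.59%), and Kcna3 and Kcnn3, whose direction the level rule favours, are among these 4. DESeq2 called 2 members, Kcna6 and Kcnj10, in a test that called 0.963% of all genes, and limma-voom called 0. The median log2 fold change of the members was 0.54, beside 0.26 for all genes tested, with 32 members positive and 25 negative, but it was -0.88 in a 5-group fit, -0.87 with the replicate block and -1.55 in limma-voom. The run of the datL and datM libraries held no serotonin library, so for those 4 the run and the neuron type cannot be told apart.

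The same question was asked within lane 8, with Lateral and Medial against the 2 serotonin libraries. Here 2 auxiliary subunits of Kv1 channels, Kcnab1 and Kcnab2, stood above serotonin together with Kcna6, and the leak channel Kcnk3 stood below. Markers of other cells were also above serotonin there: the 6 oligodendrocyte lineage markers summed to 142 CPM in Lateral and 273 in Medial, against 21.1 and 32.7 CPM in serotonin libraries, the 5 red blood cell markers to 102 and 237, against 26.1 and 40.7 CPM, and the 5 GABA neuron markers to 799 and 416, against 237 and 320 CPM. Their part in the members' values was not tested. edgeR called 3 of 13400 genes (0.0224%) and 0 of the 56 members tested, with a smallest adjusted p of 0.273. At an unadjusted p under 0.05, 9 members were higher (16.1%, against 7.34% of all genes): Kcna6, Kcnab2, Kcnj8, Kcna5, Kcnab1, Kcnh1, Kcnk10, Kcnd3 and Kcnip2. Of these, Kcnj8 and Kcna5 reached 1 CPM in dopamine libraries only. Kcnj3 and Kcnk3 were the 2 that were lower (3.57%, against 6.46%). Without overlap, 15 members lay above serotonin (26.8%, against 25.0%) and 7 below (12.5%, against 24.6%). The level rule favours the direction of Kcna3, Kcna5 and Kcnj8 above and of Kcnn3 below, here and in the calls that follow. DESeq2 called 6 members, Kcna5, Kcna6, Kcnab1, Kcnab2, Kcnh1 and Kcnj8, all higher, where it called 5.87% of all genes. Without Lateral, and with Medial assumed to vary like the serotonin pair, edgeR called 7 members where it called 17.3% of all genes: Kcna5, Kcna6, Kcnab2, Kcnc4 and Kcnd3 higher, Kcne1l and Kcns2 lower. The median log2 fold change was 0.21, beside 0.03 for all genes, and without Lateral it was -0.69, beside -0.25. E18 is marked on Lateral and Medial only, so within lane 8 this mark and the neuron type cannot be told apart.

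**Figure D3:**
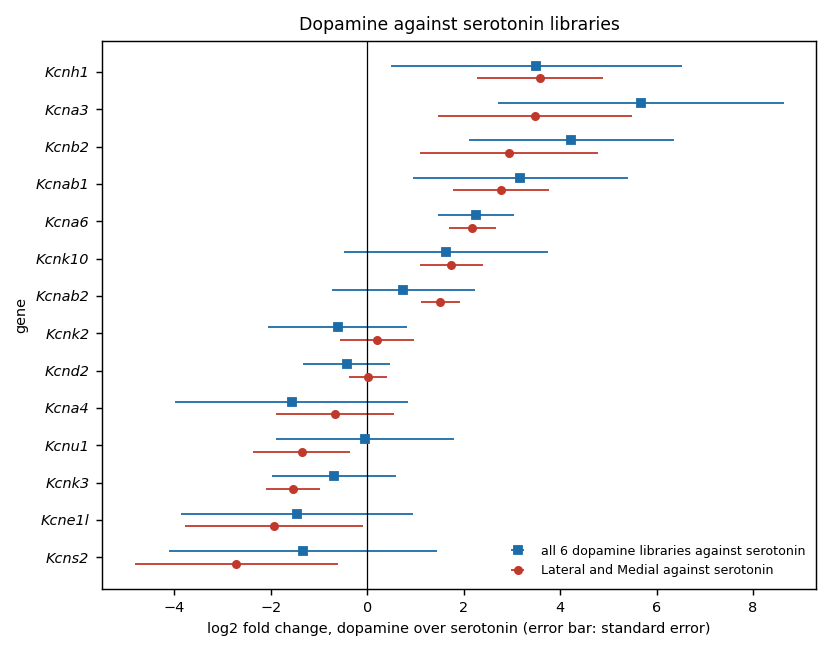
Log2 fold change of dopamine over serotonin with its standard error for 14 members, from all 6 dopamine libraries (squares) and from Lateral and Medial alone (circles). Kcna6 has nearly the same value in both fits, 2.25 and 2.18, and most other bars of the 6-library fit are wider than those within lane 8. Kcnj10 did not enter the lane 8 fit and is not drawn.

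Among the Shaker (Kv1) subunits, which open at low voltages and act mostly along axons, Kcna6 led (ENSMUSG00000038077.6, chromosome 6, 126708329 to 126740662, minus strand, mm10). It had 61.0 and 42.6 CPM in datL, 33.4 and 120.4 in datM, 82.0 in Lateral and 65.7 in Medial, against 17.9 and 13.0 CPM in serotonin libraries. The lowest dopamine library was thus above the higher serotonin library. Its log2 fold change over serotonin was 2.25 (SE 0.79, unadjusted p = 0.0149, adjusted p = 0.772 in edgeR) over 6 libraries and 2.18 (SE 0.48, unadjusted p = 0.00426, adjusted p = 0.273 in edgeR) within lane 8. Over all alternatives the 6-library value ran between 1.97 and 2.45, with adjusted p between 0.0432 and 1.00.

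Kcna3, best known from T lymphocytes, had 22.7 and 1.68 CPM in datL, 0.477 and 26.6 in datM, 3.31 in Lateral and 1.52 in Medial, against 0.373 and 0.0343 CPM in serotonin libraries. Each of the 6 dopamine libraries exceeded the serotonin pair, yet the datM libraries were far apart. Kcna5, known from heart and smooth muscle, had counts in Lateral (3.07 CPM) and Medial (16.6 CPM) but only 0.204 and 0.0686 CPM in serotonin libraries, and it was a member through Lateral and Medial alone. Kcna4, the A-type member of the family, ran the other way in level, at 0 to 6.07 CPM in dopamine and 4.11 and 12.8 CPM in serotonin libraries, and these ranges overlap. Kcna1 and Kcna2, the main Shaker subunits of adult myelinated axons, stayed at or under 4.89 and 13.1 CPM in every library.

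The beta subunits of Kv1 channels, cytoplasmic partners that speed inactivation and help the channels reach the axon, were all members. Kcnab2 had 10.49 and 0.0763 CPM in datL, 48.3 and 32.8 in datM, 70.1 in Lateral and 86.3 in Medial, against 23.7 and 27.7 CPM in serotonin libraries. Lateral and Medial were both above serotonin, whereas both datL libraries were below it. Its log2 fold change was 1.52 (SE 0.41, adjusted p = 0.286) within lane 8 and 0.75 (SE 1.48) over 6 libraries in edgeR. Kcnab1 had 0.837 and 0.153 CPM in datL, 4.18 and 116 in datM, 27.2 in Lateral and 22.2 in Medial, against 4.99 and 1.82 CPM in serotonin libraries. A single datM library held most of its counts, and Lateral and Medial lay above serotonin with a log2 fold change of 2.77 (SE 1.00, adjusted p = 0.315 in edgeR). The third gene of the class, Kcnab3, was at 0 CPM in both datL libraries, 22.4 and 0.915 in datM, 1.204 in Lateral, 0 in Medial, and 0 and 2.71 CPM in serotonin libraries.

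**Figure D4:**
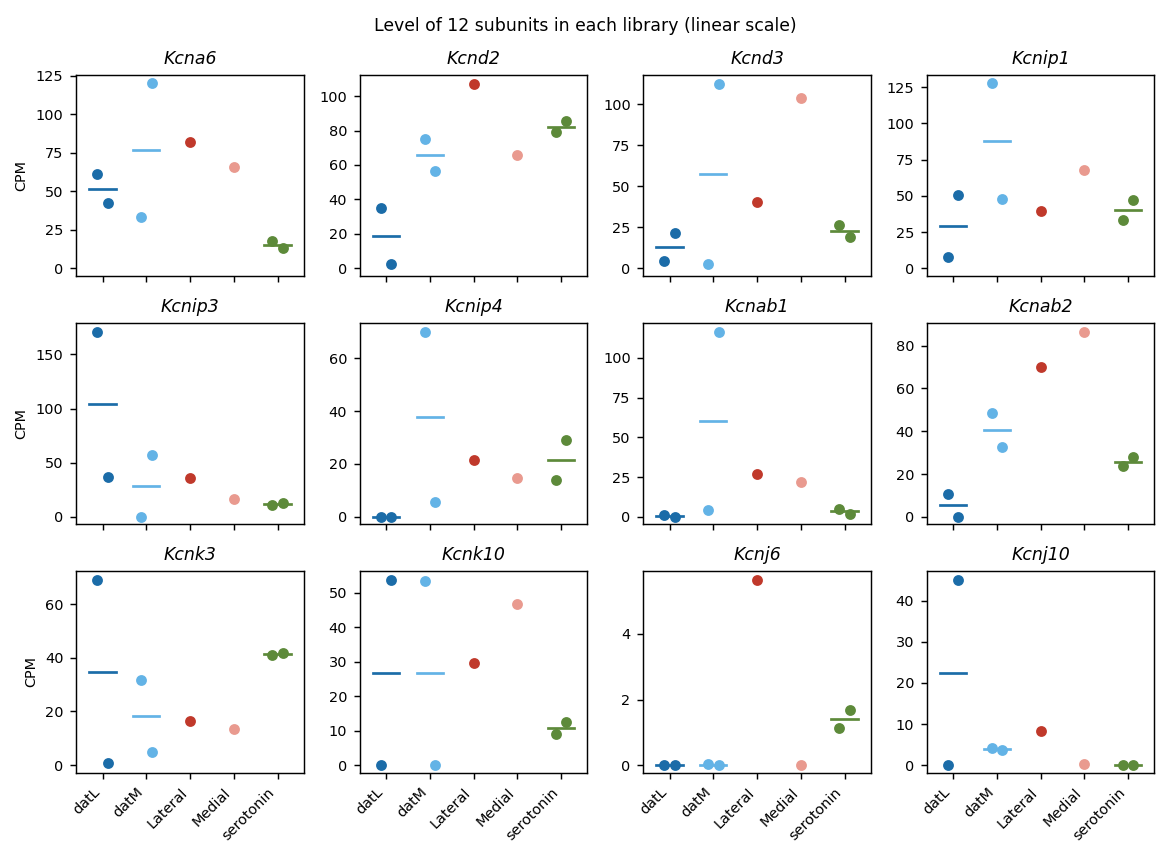
CPM of 12 members in each library on a linear scale, with points for libraries and bars for the mean of groups with 2 libraries. The 6 dopamine points of Kcna6 lie between 33.4 and 120.4 CPM, above both serotonin points, while Kcnip3, Kcnab1 and Kcnj10 each have 1 library far above the rest.

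The Kv4 subunits carry the A-type current, which delays the next spike. Their summed CPM was above that of the Kv1 members in the datM, Lateral, Medial and serotonin libraries. In datL it was below, at 40.0 and 24.4 against 89.2 and 44.4 CPM. Kcnd2 (ENSMUSG00000060882.5, chromosome 6, 21215503 to 21729805, plus strand, mm10) had 35.3 and 2.75 CPM in datL, 75.0 and 56.3 in datM, 107 in Lateral and 65.9 in Medial, against 78.9 and 85.7 CPM in serotonin libraries. Lateral alone exceeded serotonin, and the log2 fold change was -0.43 (SE 0.90) over 6 libraries and 0.01 (SE 0.40) within lane 8. Kcnd3 had 4.67 and 21.7 CPM in datL, 2.72 and 113 in datM, 40.2 in Lateral and 104 in Medial, against 26.3 and 19.0 CPM in serotonin libraries. A datM library and Medial were high, and Lateral and Medial were above both serotonin libraries, with a log2 fold change of 1.56 (SE 0.58, adjusted p = 0.323 in edgeR).

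The KChIP calcium sensors, which bind the Kv4 channels and bring them to the surface, were all members. Together the 4 of them came to 178 and 87.8 CPM in datL, 198 and 111 in datM, 115 in Lateral and 112 in Medial, against 60.4 and 89.9 CPM in serotonin libraries. Which sensor made up the sum changed from library to library. Kcnip1 had 7.84 and 50.9 CPM in datL, 128 and 47.9 in datM, 39.4 in Lateral and 68.0 in Medial, against 33.5 and 46.9 CPM in serotonin libraries, and the groups overlap. Kcnip3 had 171 and 36.9 CPM in datL, 0.0367 and 57.4 in datM, 36.3 in Lateral and 16.5 in Medial, against 11.03 and 12.7 CPM in serotonin libraries. In all but 1 dopamine library it stood above serotonin, and that library held 1 count where its partner replicate held 1381. Kcnip4 (ENSMUSG00000029088.10, chromosome 5, 48389502 to 49524904, minus strand, mm10) had 0 CPM in both datL libraries, 69.9 and 5.49 in datM, 21.5 in Lateral and 14.5 in Medial, against 13.98 and 28.9 CPM in serotonin libraries. The last auxiliary member, Kcne1l, encodes a small protein that crosses the membrane once and modulates Kv channels. It had 10.3 and 0 CPM in datL, 7.96 and 0 in datM, 6.80 in Lateral and 0.0892 in Medial, against 9.98 and 16.1 CPM in serotonin libraries, and both serotonin libraries were above Lateral and Medial (log2 fold change -1.93, SE 1.84, adjusted p = 0.727 in edgeR).

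The Kv2 subunits carry much of the delayed rectifier current at the cell body. Kcnb2 had 7.75 and 4.23 CPM in datL, 27.4 and 49.1 in datM, 3.52 in Lateral and 13.9 in Medial, against 1.93 and 0.137 CPM in serotonin libraries. The neuron types did not overlap, with a log2 fold change of 4.23 (SE 2.12, adjusted p = 1.00 in edgeR), which ran from 3.24 to 7.03 when 1 library was left out, 7.03 being without the first serotonin library. Silent Kv subunits form no channel alone but modify Kv2 channels. Kcns2 had 35.8 CPM in a datM library, 5.90 in Lateral and 0 in the other 4 dopamine libraries, against 20.6 and 17.7 CPM in serotonin libraries. Kcns3 reached 33.2 CPM and Kcng1 27.1 CPM in the same datL library, and in the other dopamine libraries they stayed at or under 0.0446 and 0.993 CPM. Kcnf1 was at 16.6 CPM in the other datL library, and Kcnv1 at 17.1 CPM in Medial and 6.99 and 8.88 CPM in serotonin libraries.

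Kv3 subunits open and close fast enough for high firing rates. Kcnc4 had 27.1 and 1.11 CPM in datL, 18.2 and 0 in datM, 22.9 in Lateral and 80.9 in Medial, against 19.1 and 14.5 CPM in serotonin libraries. Kcnc1 ran between 2.68 and 88.2 CPM in dopamine libraries, with a median of 20.5, and was close to even in the serotonin pair at 29.9 and 28.7 CPM. Kcnc2 reached 47.0 CPM in a datL and 51.2 CPM in a datM library, against 3.05 and 6.79 CPM in serotonin libraries. Of the Kv7 subunits, whose M current is shut by muscarinic receptors, Kcnq3 was at 15.9 CPM in a datL library, 4.27 in Lateral, 3.17 in Medial and 1.76 and 1.13 in serotonin libraries, and at or under 0.0416 CPM in the other 3. Among the EAG, ELK and ERG genes, Kcnh1, the EAG subunit, had 58.1 CPM in a datL library, 14.8 in Lateral and 25.2 in Medial, against 0.475 and 2.68 CPM in serotonin libraries. The ELK subunit Kcnh4 had 66.8 CPM in the other datL library and 0.0734 to 4.12 CPM in the other dopamine libraries, against 4.89 and 3.29 CPM in serotonin libraries. Kcnh2, known for repolarising the heart, had 7.23 CPM in Lateral and 4.68 in Medial, against 8.69 and 6.65 CPM in serotonin libraries, and 3 of the 4 datL and datM libraries had 0. Kcnh6 and Kcnh8 were at or under 4.16 and 18.2 CPM in every library. Kcnh7 shares 696 bases of exon with Gca on the opposite strand, and without strand in the counting their reads cannot be told apart.

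Small-conductance channels are opened by calcium inside the cell. Kcnn3, the calcium-activated subunit known to steady adult dopamine firing, had 0 CPM in both datL libraries, 0.404 and 0 in datM, 0.120 in Lateral and 0 in Medial, against 1.39 and 2.68 CPM in serotonin libraries. It was a member through the serotonin libraries alone, so that the dopamine libraries lie below them follows in part from the level rule. Kcnn2 had 0 and 0.916 CPM in datL, 7.303 and 6.20 in datM, 0.692 in Lateral and 8.56 in Medial, against 2.68 and 0.480 CPM in serotonin libraries, so both datM libraries and Medial were high. Kcnu1, the Slo3 subunit known from sperm, which alkaline pH and voltage open, had a mean of 4.34 RPKM, with 12.2 and 0 CPM in datL, 37.5 and 27.8 in datM, 10.51 in Lateral and 3.75 in Medial, against 19.9 and 15.4 CPM in serotonin libraries.

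The G-protein-gated inward rectifiers, through which dopamine and serotonin autoreceptors silence adult neurons, were low in all groups. Kcnj6 (ENSMUSG00000043301.9, chromosome 16, 94749266 to 94997696, minus strand, mm10) had 0 CPM in both datL libraries, 0.0367 and 0 in datM, 5.63 in Lateral and 0 in Medial, against 1.12 and 1.68 CPM in serotonin libraries. Lateral, with 187 counts, was the only dopamine library with more than 1 count. Kcnj3 had 13.2 CPM in a datL library and at most 0.0446 CPM in the other 5 dopamine libraries, against 2.65 and 3.46 CPM in serotonin libraries. Within lane 8, Lateral and Medial together held 1 count and the serotonin pair 179, a scaled ratio of 0.00589 (exact counting interval 0.000148 to 0.0332). In edgeR the unadjusted p was 0.0258 and the adjusted p 0.296. Kcnj9 had 0.925 and 0.0381 CPM in datL, 0 in both datM libraries, 6.05 in Lateral and 0.758 in Medial, against 0.543 and 5.80 CPM in serotonin libraries. The remaining subunit of this group, Kcnj5, did not reach the level for members.

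Other inward rectifiers include pores that are known from non-neuronal cells. Kcnj10, the main potassium channel of astrocytes, had 0 and 44.9 CPM in datL, 4.15 and 3.62 in datM, 8.34 in Lateral and 0.268 in Medial, against 0 and 0.0343 CPM in serotonin libraries. The dopamine libraries held 1660 counts and the serotonin libraries 1, a ratio of 624.5 after scaling to the totals, with an exact counting interval of 112 to 24682. The second datL library held 1177 of these counts, and without it, in a ratio added after seeing the data, the value was 218 (39.0 to 8647). The first datL library overlapped the serotonin pair, and Kcnj10 was a member through dopamine libraries alone. The astrocyte and radial glia markers summed to 3462 and 1855 CPM in datL, 3488 and 2355 in datM, 2071 in Lateral and 3091 in Medial, against 660 and 862 CPM in serotonin libraries, with 7 to 10 of 10 at 1 CPM or more in dopamine and 7 and 9 in serotonin libraries. Gja1 and Aqp4 were at 0 in the first datL library and Gfap in 5 of the 6 dopamine libraries, and the part of these cells in the Kcnj10 values was not tested.

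Kcnj8, the pore of the ATP-sensitive channel of mural cells, had 0 CPM in both datL libraries, 0 and 12.02 in datM, 6.98 in Lateral and 9.55 in Medial, against 0.102 and 0 CPM in serotonin libraries. Lateral and Medial held 446 counts and the serotonin pair 3, a scaled ratio of 157 (exact counting interval 53.3 to 763). Kcnj8 was a member through dopamine libraries alone, which favours this direction. Its partner Abcc9, itself one of the 8 vascular and mural markers, was at 0 in all 4 datL and datM libraries, 6.98 CPM in Lateral and 16.8 in Medial, against 0.780 and 3.36 CPM in serotonin libraries. Those markers summed to 44.9 CPM in Lateral, with 8 of 8 at 1 CPM or more, and 165 CPM in Medial, with 7 of 8, against 13.9 and 16.7 CPM with 4 of 8 each in serotonin libraries. Pecam1 was at 0 in Medial and in a serotonin library, and the part of these cells in the Kcnj8 values was not tested. Kcnj16, which joins Kcnj10 in glia, had 33.6 CPM in a datM library and at most 3.97 CPM in the other dopamine libraries, against 9.60 and 0 CPM in serotonin libraries. Kcnj12, a strong rectifier that holds the resting potential, had 34.8 CPM in a datM library, 11.3 in Lateral and at most 0.268 CPM in the other 4 dopamine libraries, against 5.33 and 0.309 CPM in serotonin libraries.

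Two-pore subunits carry the leak that sets the resting potential. Kcnk3, closed by external acid, had 68.9 and 0.877 CPM in datL, 31.8 and 5.08 in datM, 16.6 in Lateral and 13.4 in Medial, against 41.2 and 41.8 CPM in serotonin libraries. The serotonin pair was nearly identical, and of the dopamine libraries only a datL library exceeded it. The log2 fold change was -1.54 (SE 0.56, unadjusted p = 0.0333, adjusted p = 0.315 in edgeR) within lane 8 and -0.69 (SE 1.29) over 6 libraries. Kcnk10, a stretch-sensitive channel (ENSMUSG00000033854.9, chromosome 12, 98433994 to 98577940, minus strand, mm10), had 0 and 53.6 CPM in datL, 53.3 and 0.125 in datM, 29.7 in Lateral and 46.7 in Medial, against 8.96 and 12.4 CPM in serotonin libraries. In each of datL and datM a library was above serotonin and its partner below. Its relative Kcnk2 had 1.32 to 44.4 CPM in dopamine libraries, with a median of 13.7, against 11.7 and 43.3 CPM in serotonin libraries. Kcnk1, another leak channel, had 8.52 CPM in Lateral and at most 0.0446 CPM in the other dopamine libraries, against 7.60 and 2.02 CPM in serotonin libraries. Kcnk9, an acid-sensitive channel like Kcnk3, stayed at 0 to 5.84 CPM in dopamine libraries, against 2.75 and 0.892 CPM in serotonin libraries.

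Partner genes that the symbol rule leaves out were looked at beside the members: the large-conductance channel Kcnma1 with its beta subunits, the Kv4 partners Dpp6 and Dpp10, the ATP-sensitive regulators Abcc8 and Abcc9, the Kv2 partner Amigo1, Lgi1, Cntnap2 and Cntn2 of Kv1 complexes, and the Hcn channels. Of 17 such genes, 14 entered each fit and edgeR called 0 in each. At an unadjusted p under 0.05, 0 differed over 6 libraries, Cntn2 and Cntnap2 were higher in dopamine within lane 8, and Amigo1 was higher in datL than in datM.

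The comparison of datL with datM asked whether dopamine neurons of these labels differ in their subunits. The Kv4 sensor Kcnip4 and the Kv1 partners Kcnab1 and Kcnab3 were at or near 0 in datL and found in datM, and no member passed the threshold. Sums of cell type markers differed without overlap too. The 6 dopamine markers came to 369 and 936 CPM in datL against 1752 and 1159 in datM. The 5 GABA neuron markers summed to 311 and 583 against 50.2 and 131. For the 6 progenitor and cell cycle markers the sums were 415 and 371 against 2037 and 1307. The 8 vascular and mural markers summed to 13.8 and 62.5 against 88.3 and 102. Single markers in these sums overlapped, among them Slc6a3, Th, Slc32a1, Mki67, Ccnb1 and Pecam1. The part of these cell types in the members' values was not tested. edgeR, fitted over all 5 groups, called 0 of 15177 genes (0%) and 0 of 57 members, with a smallest adjusted p of 0.597. At an unadjusted p under 0.05, 4 members were lower in datL (7.02%, against 3.52% of all genes) and 0 higher (against 3.40%). Without overlap, 11 members lay below datM (19.3%, against 13.2% of all genes) and 2 above (3.51%, against 11.3%). DESeq2 called 10 members, 3 higher and 7 lower in datL, where it called 10.6% of all genes, and limma-voom called Kcnip4 alone, where it called 1.60%. The median log2 fold change of the members was -0.48, beside 0 for all genes tested, and -2.48 when the second datL library was left out. With groups at 0 counts set to their bound, and without the 8 members at or under 3 counts in both groups, it was -0.94 over 49 members.

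Kcnip4 gave the lowest p among the members in this comparison. It had 0 counts in both datL libraries, against 1904 and 132 in the datM libraries. With a floor of 3 counts over the datL pair and the datM counts summed, it was at least 647-fold lower in datL. This bound rests mostly on the first datM library and is not reached by the second alone. The edgeR test gave an unadjusted p of 0.00522 and an adjusted p of 0.597. Kcnab1 followed, with 0.837 and 0.153 CPM in datL against 4.18 and 116 CPM in datM and a log2 fold change of -6.81 (SE 2.38, unadjusted p = 0.0235, adjusted p = 0.597 in edgeR). Both datL libraries of these genes lay below both datM libraries. Kcnj12, Kcns2 and Kcnab3 also had 0 counts in datL, and their bounds were at least 302-fold, 273-fold and 201-fold lower there. For each of these the counts came almost wholly from 1 of the datM libraries: the other held 0.0832 CPM of Kcnj12, 0 of Kcns2 and 0.915 of Kcnab3.

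In the other direction, among members with a mean of at least 5 CPM, those with the smallest p were Kcns3, Kcng1, Kcnh1, Kcnh4 and Kcnip3, and the first 4 of these rested on 1 datL library each. Kcns3 had 33.2 and 0 CPM in datL, against 0 and 0.0416 CPM in datM, and Kcng1 27.1 and 0.0381, against 0 and 0.0416. Kcnh1 had 0.0441 and 58.1 CPM in datL, against 0 and 0.333 CPM in datM. In these the datL library without the high value was close to datM. A sodium-activated subunit, Kcnt2, was at 8.66 CPM in that same datL library as Kcnh1 and had 0 counts in the other datL library and in both datM libraries. The biological coefficient of variation was 1.58 in datL and 1.57 in datM, against 0.688 in serotonin.

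With 1 library on each side, Lateral was set against Medial without a test, as the ratio of their CPM with an exact binomial interval at 95% for counting error. With at least 100 counts in the pair, 4 members had 0 counts in Medial: Kcnj6, Kcns2, Kcnf1 and Kcnk4, a stretch-sensitive leak channel. The share of all genes with this pattern was not computed. Of the 12447 protein-coding genes under the level rule, 8.07% had 0 counts in Medial and 1.52% in Lateral. Medial also had fewer genes at 1 CPM, 10963 against 12427 in Lateral. Kcnj6 held 187 counts against 0 and was at least 42.1-fold higher in Lateral, with a floor of 3 counts in Medial. Kcns2 held 196 (at least 44.1-fold), Kcnf1 195 (at least 43.9-fold) and Kcnk4 119 counts (at least 26.8-fold). Kcnk1 held 283 counts in Lateral against 1 in Medial, a ratio of 191 (34.0 to 7570). Lowest in Lateral relative to Medial were Kcnj14 (1 count in Lateral against 107, a ratio of 0.00631, interval 0.000158 to 0.0359), Kcnk9 (0.0773, 0.0421 to 0.132), Kcnn2 (0.0808, 0.05004 to 0.125) and Kcnv1 (0.158, 0.124 to 0.199).

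Among 46 members with at least 100 counts in the pair, 18 were more than 2-fold higher in Lateral (39.1%, against 25.0% of 11867 such genes) and 9 more than 2-fold lower (19.6%, against 24.2%). The abundant members differed less. The ratio of Lateral to Medial was 1.25 (1.17 to 1.33) for Kcna6, 1.63 (1.53 to 1.73) for Kcnd2, 0.812 (0.764 to 0.863) for Kcnab2 and 0.580 (0.538 to 0.625) for Kcnip1. Kcnd3 and Kcnc4 were lower in Lateral, with ratios of 0.386 (0.361 to 0.414) and 0.283 (0.260 to 0.308).

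**Figure D5:**
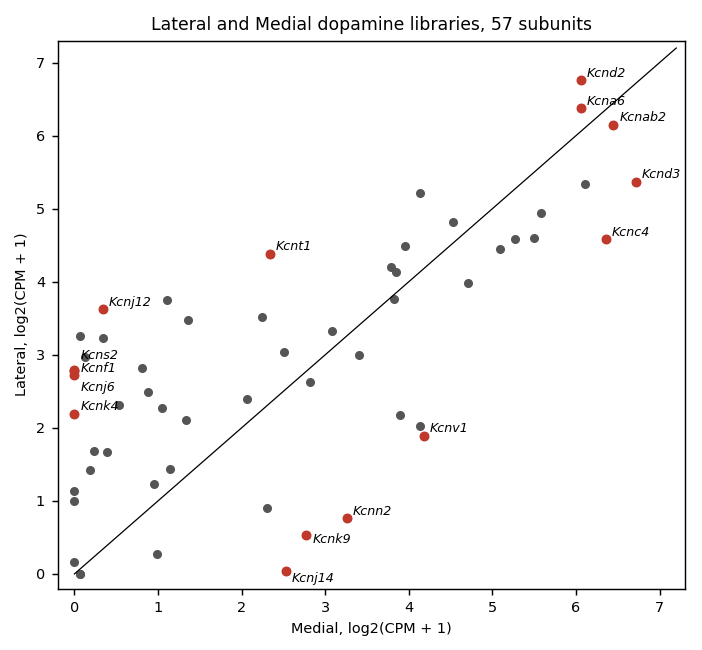
Level of the 57 members in Lateral (vertical) and Medial (horizontal) as log2(CPM + 1), with the line of equal levels. Named points include Kcnj6, Kcns2, Kcnf1 and Kcnk4 on the left edge, at 0 in Medial, and Kcnj14, Kcnk9, Kcnn2 and Kcnv1 below the line.

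Whether datL differs from datM as Lateral differs from Medial was tested as a difference of differences in the 5-group fit. It called 0 of 15177 genes and 0 of 57 members in edgeR, with a smallest adjusted p among members of 1.00, and 2 members had an unadjusted p under 0.05 (3.51%, against 2.63% of all genes). Side by side, Kcnip4 was at 0 in datL but had a ratio of 1.48 (1.29 to 1.69) in Lateral over Medial. Kcns2 was at 0 in datL and in Medial, and found in datM and in Lateral. Kcnk9, at least 20.7-fold lower in datL, also had its lower value in Lateral, and so had Kcnn2, with a log2 fold change of -3.81 (SE 3.00, adjusted p = 0.773 in edgeR) in datL over datM. Kcnip3 overlapped between datL and datM, with a log2 fold change of 1.96 (SE 2.17, adjusted p = 0.920 in edgeR) that ran from 0.43 to 11.35 when 1 library was left out, and had a ratio of 2.19 (1.95 to 2.47) in Lateral over Medial.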

How the data were processed

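Ribosome-bound RNA of 8 libraries was measured as counts per gene, deposited by the authors as 1 table per library. Per the file headers, featureCounts 1.4.3-p1 made these counts on GENCODE vM2 without strand. The submitters' processing notes name STAR and mm10. The labels' protocols give long-distance PCR of the cDNA, fragments near 200 bp, 10 further PCR cycles and single reads of 100 bp. PCR copies carried no molecular identifiers.

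CPM was computed from the deposited counts over the library total, and RPKM with the tables' gene lengths. Genes were tested with edgeR 4.0.16 (R 4.3.3): TMM factors, default expression filter, quasi-likelihood test, two-sided, Benjamini-Hochberg adjustment over all genes, threshold 0.05. Dopamine against serotonin was fitted as 6 libraries against 2 and as 2 against 2 in lane 8, and datL against datM in a fit of 5 groups. Standard errors were derived from the fold change and the statistic. The tests were tested on simulated counts, where 100% of 200 genes changed by 4 on the log2 scale were recovered in each fit, with 12, 9 and 13 unchanged genes called among 13564, 12944 and 13564. The simulated spread was set smaller than the biological coefficient of variation of these libraries (1.58 in datL, 1.57 in datM, 0.688 in serotonin). These rates therefore do not show which changes the fits can find in the data. Intervals are exact at 95%. Alternatives were DESeq2 1.42.0, limma-voom 3.58.1, RLE factors, other filters, subsets of the libraries, a replicate block and leaving out each library. Symbols came from GENCODE M21 by gene identifier, for 37607 of 38924 genes, and coding sequences from the same release. Protein sequences were not used here.

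The members, lists and tests were chosen with earlier results of these data known. Genes named were a list of 18 subunits known from these neurons or their neighbours, the 5 members each way with the smallest p at a mean of at least 5 CPM in each fit, the 4 largest ratios each way between Lateral and Medial at 100 counts or more, and the 10 highest by RPKM. Other members were named after their values were seen. Results for 3 members are not reported here.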

Additional observations from a re-analysis of the deposited data

Results flagged for a closer look

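In 20 of the 39 named members (51.3%), the highest of the 6 dopamine libraries stood apart from the next. The gap was above Dixon's 95% critical value for 6 samples, which draws from 1 normal population pass in about 1 in 20 groups when gaps at either end count. At the upper end alone fewer groups pass. These libraries come from datL, datM, Lateral and Medial, in linear CPM, so that rate does not hold here. The rule that names members favours such values. Over all 57 members 30 had such a gap (52.6%), against 24.8% of 12419 protein-coding genes under the same level rule. Those genes were not matched to the members for level. The libraries that stood apart were spread over all groups: 4 members each in the first datL, the second datL and the first datM library, 3 each in Lateral and Medial and 2 in the second datM library. In the first datL library these were Kcnip3 (171 CPM, next 57.4), Kcnh4 (66.8), Kcns3 (33.2) and Kcng1 (27.1). In the second datL library they were Kcnj10 (44.9 CPM, next 8.34), Kcnf1 (16.6), Kcnq3 (15.9) and Kcnj3 (13.2). In the first datM library they were Kcnip4 (69.9 CPM, next 21.5), Kcnj12 (34.8), Kcnab3 (22.4) and Kcnn3 (0.404). In the second datM library they were Kcnab1 (116 CPM, next 27.2) and Kcns2 (35.8 CPM). Lateral stood apart in Kcnj9 (6.05 CPM), Kcnj6 (5.63) and Kcnk4 (3.58), and Medial in Kcnc4 (80.9 CPM), Kcnv1 (17.1) and Kcnj14 (4.77). The cause was not tested.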

How the results depend on the processing

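Over 6 libraries against serotonin, DESeq2 called 2 members, Kcna6 and Kcnj10 (3.51%, against 0.963% of all genes). Kcnj10 reached 1 CPM in dopamine libraries only, so the level rule favours its direction. Every other alternative called 0, as did the fits that left out 1 dopamine library. The median of the members reversed to -0.88 in a 5-group fit, -1.55 in limma-voom and -0.87 with the replicate block, where the medians of all genes were -0.37, -0.64 and -0.07, and ran between 0.12 and 0.80 when 1 library was left out. Within lane 8, DESeq2 called 6 members, 7 were called without Lateral and 0 to 7 over all omissions. The median there reversed to -0.18 in limma-voom and to -0.69 without Lateral, within a range of -0.69 to 0.63. For datL against datM, DESeq2 called 10 members (17.5%, against 10.6% of all genes) and limma-voom 1 (1.75%, against 1.60%). Without Lateral or without Medial 0 were called, and the median ran from -2.48 to 0 over all omissions. When 1 library was left out, single members changed sign: Kcnk2 over 6 libraries ran from -1.31 to 0.55, Kcna4 in lane 8 from -1.27 to 0.35 (0.35 also with the replicate block), and in datL over datM Kcns3 from -2.48 to 11.96, Kcnh4 from -1.06 to 8.81 and Kcnh1 from -1.73 to 12.78. Kcns2 there ran from -12.93 to 0. The cause was not tested. Level cutoffs of 0.5 and 5 CPM gave 60 and 39 members. Same-numbered libraries of datL and datM deviated together with a correlation of 0.0984, and those of datL or datM with serotonin of 0.0147 and -0.00287. No pairing by replicate number showed in these values, but with 2 libraries a group they cannot exclude one. Depth limits what can be seen of members near 0.110 to 0.132 CPM in datL and datM. Replicates there also differed far above that level: 16 members in datL and 12 in datM reached 10 CPM in a library and stayed under 1 CPM in its partner. A count of 0 in a single library therefore does not bound the level of its group.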
